A study of Mus musculus with 16 samples.

Results

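The genes described here are 33 genes that neurons of most kinds use, among them the proteins that load, dock, release and recover synaptic vesicles. The rule names the genes and uses no measured value, and every probe on the arrays that carries 1 of these names was taken. The genes themselves were chosen with earlier results of these data known. The 33 genes had 51 probes, of which 50 passed the filter on dim probes, so all 33 were among the 24363 genes tested. They were read as 4 groups by role. These were 18 genes of the vesicle and its release, 5 of the neuronal cytoskeleton, 5 general markers of neurons and 5 of transmitter identity. The last group holds the calcium buffer Pvalb, not itself a transmitter gene, beside genes that make or load a transmitter.

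A synaptic vesicle releases its transmitter when SNARE proteins on the vesicle (the synaptobrevins, Vamp) and on the plasma membrane (syntaxin and Snap25) zip together, with a synaptotagmin as the calcium sensor and complexin holding the complex ready. The ATPase Nsf then pulls the spent SNARE complex apart, and dynamin pinches new vesicles off the membrane. The hypothalamus, which governs hunger, temperature, stress hormones and sympathetic outflow, holds many neurons that use GABA, made by the enzymes Gad1 and Gad2 and loaded into vesicles by Slc32a1. Its glutamate neurons load their vesicles mainly with Slc17a6 (VGLUT2).

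Total RNA from the hypothalamus of 16 mice was measured, 1 animal per 1-colour Agilent array, in 8 mice that the submitters call KO chimeras and 8 that they call control. KO chimeras were C57BL/6J mice that received 950 Rad and then, in 1 injection behind the eye, whole bone marrow of the strain Adrb1tm1BkkAdrb2tm1Bkk/J, which lacks the beta-1 and beta-2 adrenergic receptors. The labels add that knockout and C57BL/6J stood at 1 to 4, with no word on what this counts, and tissue was taken after 2 to 3 months. The treatment text and the irradiated recipient strain are the same for all 16 mice. A donor strain is listed for the KO chimeras alone, so whether control mice were irradiated or given other marrow is not settled. Bone marrow is the only transplant described, and the genotype of the neurons was not measured. Values are log2 of the background-subtracted signal minus the array's 75th percentile, so that 0 is the signal of a probe at that percentile, and each difference is KO chimera minus control. Between 27276 (KO chimera replicate 1) and 43248 (control replicate 8) spots per array were well above background. Of 14 markers of hypothalamic neurons, 13 passed the filter (Otp did not), each well above background on 15 or 16 arrays. Neurod6 and Emx1, which mark neurons of the cortex and hippocampus, did not pass it.

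The promoters of 3 members are printed here: Syn1, a textbook example of a vesicle gene with a silencer that keeps it to neurons, Dnm1, the vesicle gene that passed the test below, and Gad1, a transmitter gene that did not. Each is the 250 bases before the annotated start of the gene, from RefSeq on GRCm38.p6, 5′ to 3′ on the gene's strand. Capitals mark matches to 5 short motifs searched on both strands: the cAMP response element TGACGTCA, the left part of the RE1 silencer element TTCAGCACC, the GC box GGGCGG, the TATA box TATAAA and the CCAAT box CCAAT. Syn1 lies at chrX:20920919-20921168 on the minus strand, Dnm1 at chr2:32353330-32353579 on the minus strand and Gad1 at chr2:70561879-70562128 on the plus strand.
Syn1: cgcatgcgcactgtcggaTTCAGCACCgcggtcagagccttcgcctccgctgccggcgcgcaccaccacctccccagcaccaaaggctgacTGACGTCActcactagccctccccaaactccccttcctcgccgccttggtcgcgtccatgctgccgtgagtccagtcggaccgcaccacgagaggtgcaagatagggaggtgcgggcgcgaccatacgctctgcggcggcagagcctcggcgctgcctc
Dnm1: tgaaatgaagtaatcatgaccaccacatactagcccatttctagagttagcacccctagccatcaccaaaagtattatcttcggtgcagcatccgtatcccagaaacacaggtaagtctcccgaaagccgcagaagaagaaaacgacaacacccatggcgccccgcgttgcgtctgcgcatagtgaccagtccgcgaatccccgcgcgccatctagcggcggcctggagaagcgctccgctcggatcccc
Gad1: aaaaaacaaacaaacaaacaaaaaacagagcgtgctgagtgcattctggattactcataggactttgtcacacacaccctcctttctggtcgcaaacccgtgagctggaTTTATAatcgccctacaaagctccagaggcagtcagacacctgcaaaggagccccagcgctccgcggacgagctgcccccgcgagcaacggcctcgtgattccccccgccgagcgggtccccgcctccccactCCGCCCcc
In Syn1 the RE1 letters, which the repressor REST reads in cells that are not neurons, begin 232 bases before the start, and a cAMP response element begins 159 bases before it. Gad1 holds a TATA box on the opposite strand (TTTATA, 141 bases before the start) and a GC box on the opposite strand (CCGCCC, 8 bases before it). None of the 5 motifs was found in the Dnm1 window. RefSeq promoters were matched for 26 of the 33 genes. Syn1 alone of these held the cAMP response element, which 1.77% of all 27025 gene promoters held, and the RE1 letters, which 0.348% held. The GC box was found in 14 of the 26 (53.8%) against 35.4% of all promoters, the TATA box in 3 (11.5%) against 14.3%, and the CCAAT box in 9 (34.6%) against 37.5%.

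In KO chimeras 3 of the 33 genes fell relative to control: the RNA-binding protein Rbfox3, whose protein (NeuN) is the standard stain for neuronal nuclei, the surface glycoprotein Thy1 and the dynamin Dnm1 (limma, Benjamini-Hochberg adjusted p under 0.05 over all genes). The reductions were modest, with mean signals between 80.4% and 83.3% of control. No member rose. Of all genes tested, 3.83% were called, 2.8% as lower and 1.03% as higher. In bulk tissue fewer neurons and less RNA per neuron cannot be told apart. Thalamic and oligodendrocyte markers had medians of −0.84 and −0.36. With the score of either list as a covariate limma called 0 of the 33 (3 and 1 at an unadjusted p under 0.05). The loss of calls was general: of all 24363 genes the same fits called 9 and 3, against 933 without a score.

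The other 30 members did not pass. The differences of the 33 leaned to 1 side: 29 were negative and 4 were positive (Cplx2, Map2, Gad1 and Gad2), with a median of −0.15 on the log2 scale, against −0.0003 over all genes. Of all 24363 genes 12198 were negative, with a larger share among bright probes, as given below. An unadjusted p under 0.05 was found for 15 of the 33 and for 5048 of all 24363 genes. In each of the 33 genes the values of the groups overlapped, and how often this holds over all genes was not counted.

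**Figure D1:**
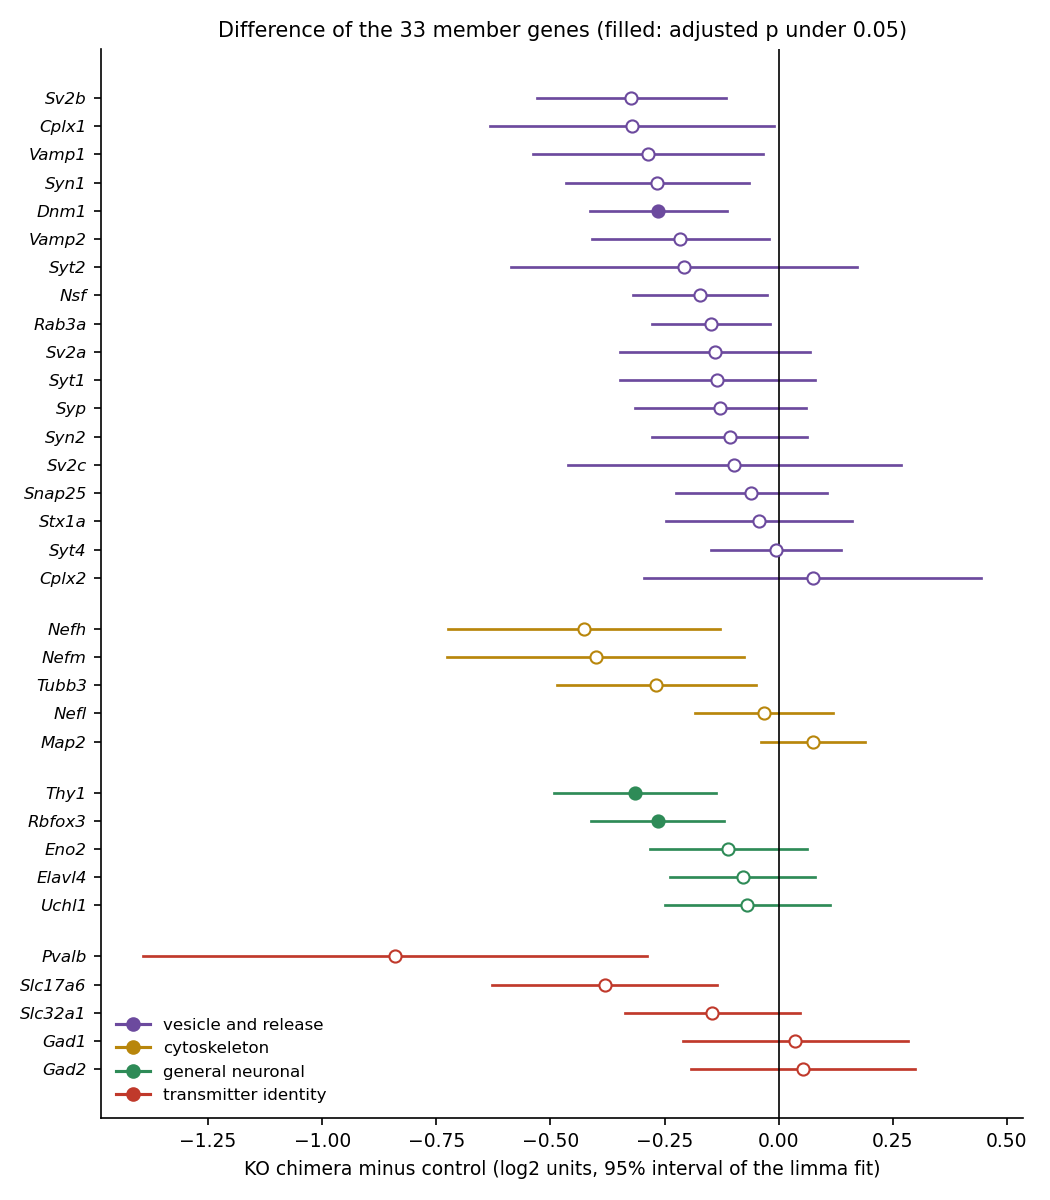
Difference of each of the 33 genes, KO chimera minus control, in log2 units (x axis), with the 95% interval of the limma fit, for 8 KO chimera and 8 control mice. Genes run down the page by role, and filled points are the 3 genes past an adjusted p of 0.05. Most points lie left of 0, Pvalb the farthest at −0.84, and Cplx2, Map2, Gad1 and Gad2 lie right of it.

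The members' probes were mostly bright, and bright probes as a class read lower in KO chimeras. When all tested genes were ranked by mean signal, 20 members lay in the top decile and 7 in the decile below it. The median difference of all genes was −0.07 in the top decile and −0.08 in the decile below, with 73.8% and 74.5% of genes negative, while in the lowest decile it was +0.14. In the top decile 5.01% of all genes were called lower, and in the decile below 6.03%. The part of this shift in the members' differences was not tested.

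**Figure D2:**
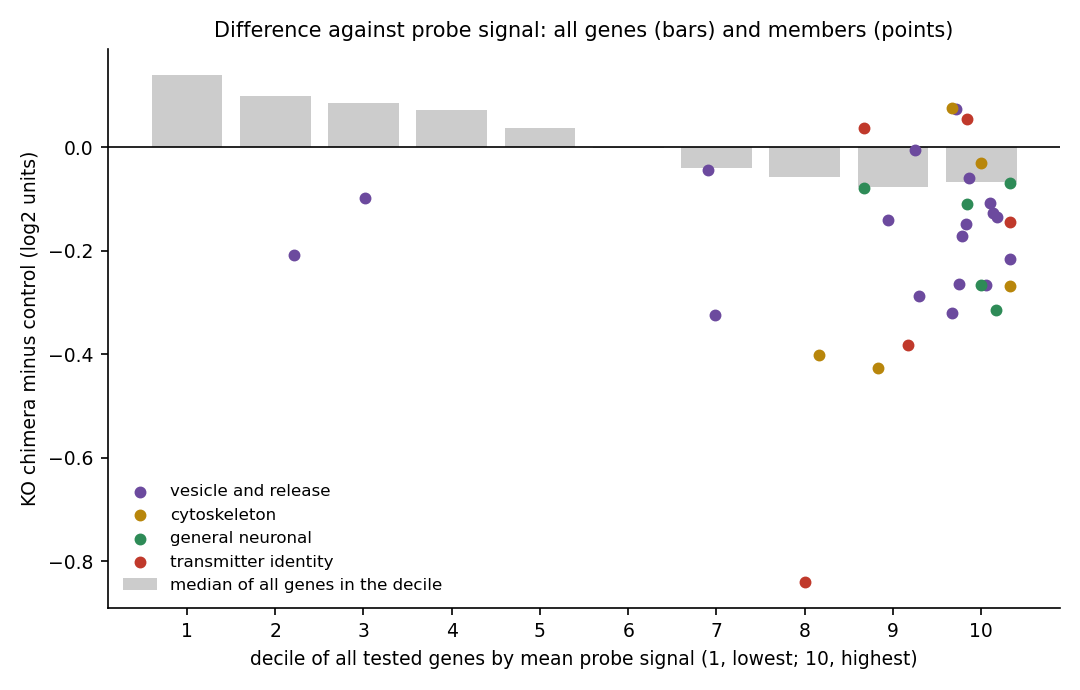
Difference, KO chimera minus control, in log2 units (y axis) against the decile of all 24363 tested genes by mean signal (x axis, 1 lowest, 10 highest). Bars are the median of all genes in the decile and points are the 33 genes, coloured by role and spread sideways for legibility. Bars go from +0.14 in the lowest decile to −0.07 in the highest, and most members lie below the bar of their decile.

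Scaling moved the whole set. Centring each array on its median in place of the 75th percentile shifted the median of all genes to −0.13 and that of the 33 to −0.27. On that scale all 33 were negative, Cplx2, Map2, Gad1 and Gad2 included, and 14 were called, within 4168 genes called in all. With quantile normalization, normexp background correction or the authors' deposited log2 values, 26 to 27 of the 33 were negative and limma called 0 of them (11, 13 and 10 at an unadjusted p under 0.05). Of all genes these fits called 523, 271 and 535, in that order, against 933 with the main scaling.

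The genes of the vesicle and its release were nearly all on the low side, 17 of 18 negative with a median of −0.14, and 1 of them fell. Dnm1, the dynamin of neurons that cuts vesicles from the membrane after release, had a lowest value of 6.06, a median of 6.17 and a highest of 6.38 in KO chimeras, against 6.28, 6.47 and 6.64 in control mice. All 8 KO chimeras lay below the control median and 5 lay below every control mouse. Its mean was 6.20 ± 0.13 in KO chimeras and 6.46 ± 0.13 in control mice (SD, n = 8 each), a difference of −0.26 (SE 0.07; limma, adjusted p = 0.0482), and the signal was 83.3% of control (95% interval 75.1% to 92.4%). The probe lies at 32163995 to 32164054 on chromosome 2 (mm9, per the file headers). A further Dnm1 probe, at 32170412 to 32170471, gave a difference of −0.02 (SE 0.15).

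Sv2b, a vesicle membrane protein of the SV2 family, had the next smallest p of this group. It spanned 0.28 to 0.58 with a median of 0.48 in KO chimeras, against 0.47 to 1.17 with a median of 0.79 in control mice. KO chimeras were tightly grouped and all 8 lay below the control median, while 3 control mice lay within their range. The mean was 0.46 ± 0.10 in KO chimeras and 0.78 ± 0.26 in control mice (SD, n = 8 each), and the difference of −0.32 (SE 0.10) had an adjusted p of 0.0723 in limma.

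Rab3a, the small GTPase that rides on vesicles before fusion, spanned 6.55 to 6.84 with a median of 6.70 in KO chimeras, against 6.65 to 7.02 with a median of 6.87 in control mice. All 8 KO chimeras lay below the control median and 5 control mice lay above every KO chimera, but the difference of −0.15 (SE 0.06) did not pass (limma, adjusted p = 0.182).

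Among the SNARE proteins the differences ran from −0.29 for Vamp1 and −0.22 for Vamp2, the synaptobrevins, to −0.06 for Snap25 and −0.04 for Stx1a, with adjusted p from 0.182 to 0.835 in limma. Vamp2 was below every control mouse in 6 of 8 KO chimeras, whereas KO chimera replicates 7 and 8 lay among the control mice. The Vamp1 value rests on the brighter of its probes; the other, on a different transcript, gave +0.15 (SE 0.14). Nsf had a difference of −0.17 (adjusted p = 0.169).

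The calcium sensors and their partners had wide intervals or small differences. Syt1, the fast calcium sensor of forebrain synapses, had −0.13 (95% interval −0.35 to 0.08), and Syt2, its counterpart in hindbrain and at the neuromuscular junction, had −0.21 (−0.59 to 0.17). Syt2 was a dim probe, well above background in 6 of 8 KO chimeras and 8 of 8 control mice. Syt4, which also sits on peptide-containing vesicles, had −0.005 (−0.15 to 0.14), the smallest difference of the 33.

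The complexins gave opposite signs. Cplx1 had −0.32 (SE 0.15; adjusted p = 0.226), and Cplx2 had +0.08 with a 95% interval of −0.29 to 0.44. Cplx2 had 5 probes: 4 gave between +0.06 and +0.09 and 1 gave −0.16, none past the threshold, and 2 of the positive probes are placed away from the gene in the files. Its most extreme animals were KO chimera replicate 1 at 7.50 and KO chimera replicate 8 at 5.81, above and below all control mice.

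Of the proteins of the vesicle itself, the synapsins, which tether vesicles in reserve, gave −0.27 for Syn1 (adjusted p = 0.121) and −0.11 for Syn2 (0.469). Synaptophysin, Syp, the commonest marker of vesicle membrane, gave −0.13 (0.434). Sv2a gave −0.14 (0.440) and Sv2c, a dim probe well above background on 15 arrays, −0.10 (0.789), with a second kept Sv2c probe at +0.14. None of these passed in limma.

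In the cytoskeleton group 4 of 5 genes were negative, the median was −0.27, and none passed. Nefh, the heavy neurofilament chain of thick axons, spanned 3.20 to 3.71 with a median of 3.35 in KO chimeras, against 3.53 to 4.61 with a median of 3.70 in control mice. Of the 8 KO chimeras 6 lay below every control mouse, and the control group was spread upward by replicates 5 and 7. The difference of −0.43 (SE 0.14) corresponds to 74.4% of the control signal (95% interval 60.5% to 91.4%), with an adjusted p of 0.0951 in limma, and the dimmer Nefh probe gave −0.16 (SE 0.14).

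Tubb3, the tubulin isoform specific to neurons, spanned 4.53 to 5.18 with a median of 4.92 in KO chimeras, against 4.90 to 5.53 with a median of 5.15 in control mice. Most of its values lay in a shared range, with 4 KO chimeras below every control mouse, and the difference of −0.27 (SE 0.10) had an adjusted p of 0.148 in limma. The neurofilament chains did not read alike: Nefm, the medium chain, had −0.40 (SE 0.15; adjusted p = 0.148) and Nefl, the light chain, −0.03 (95% interval −0.18 to 0.12). Map2, which binds microtubules in dendrites, was the exception in sign at +0.08 (95% interval −0.04 to 0.19), and its other probes, also positive, gave +0.22 and +0.15.

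All 5 general markers were negative, with a median of −0.11, and 2 fell. Rbfox3 spanned 3.69 to 4.13 with a median of 3.92 in KO chimeras, against 4.05 to 4.46 with a median of 4.17 in control mice. All 8 KO chimeras lay below the control median and 6 lay below every control mouse. The mean was 3.93 ± 0.13 in KO chimeras and 4.19 ± 0.12 in control mice (SD, n = 8 each), a difference of −0.265 (SE 0.07; limma, adjusted p = 0.0425) or 83.2% of the control signal (95% interval 75.2% to 92.1%), and its other probes gave −0.15 and −0.19. The probe lies at 118351107 to 118351166 on chromosome 11 (mm9).

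Thy1, a surface glycoprotein of mature projection neurons that T cells also carry, spanned 6.04 to 6.60 with a median of 6.29 in KO chimeras, against 6.45 to 6.92 with a median of 6.54 in control mice. Of the 8 KO chimeras 7 lay below every control mouse, and the other, replicate 7, lay among the higher control values. The mean was 6.27 ± 0.17 in KO chimeras and 6.58 ± 0.16 in control mice (SD, n = 8 each), a difference of −0.31 (SE 0.08; limma, adjusted p = 0.0472), with a signal of 80.4% of control (95% interval 71.1% to 91.0%). Its probe lies at 43856591 to 43856650 on chromosome 9 (mm9).

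The other general markers had smaller differences, none past the threshold. Eno2, the neuronal enolase of glycolysis, gave −0.11 (adjusted p = 0.464), Elavl4, an RNA-stabilising protein, −0.08 (0.582), and Uchl1, a ubiquitin hydrolase abundant in neurons, −0.07 (0.686). The 95% interval was −0.28 to 0.06 for Eno2, −0.24 to 0.08 for Elavl4 and −0.25 to 0.11 for Uchl1.

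**Figure D3:**
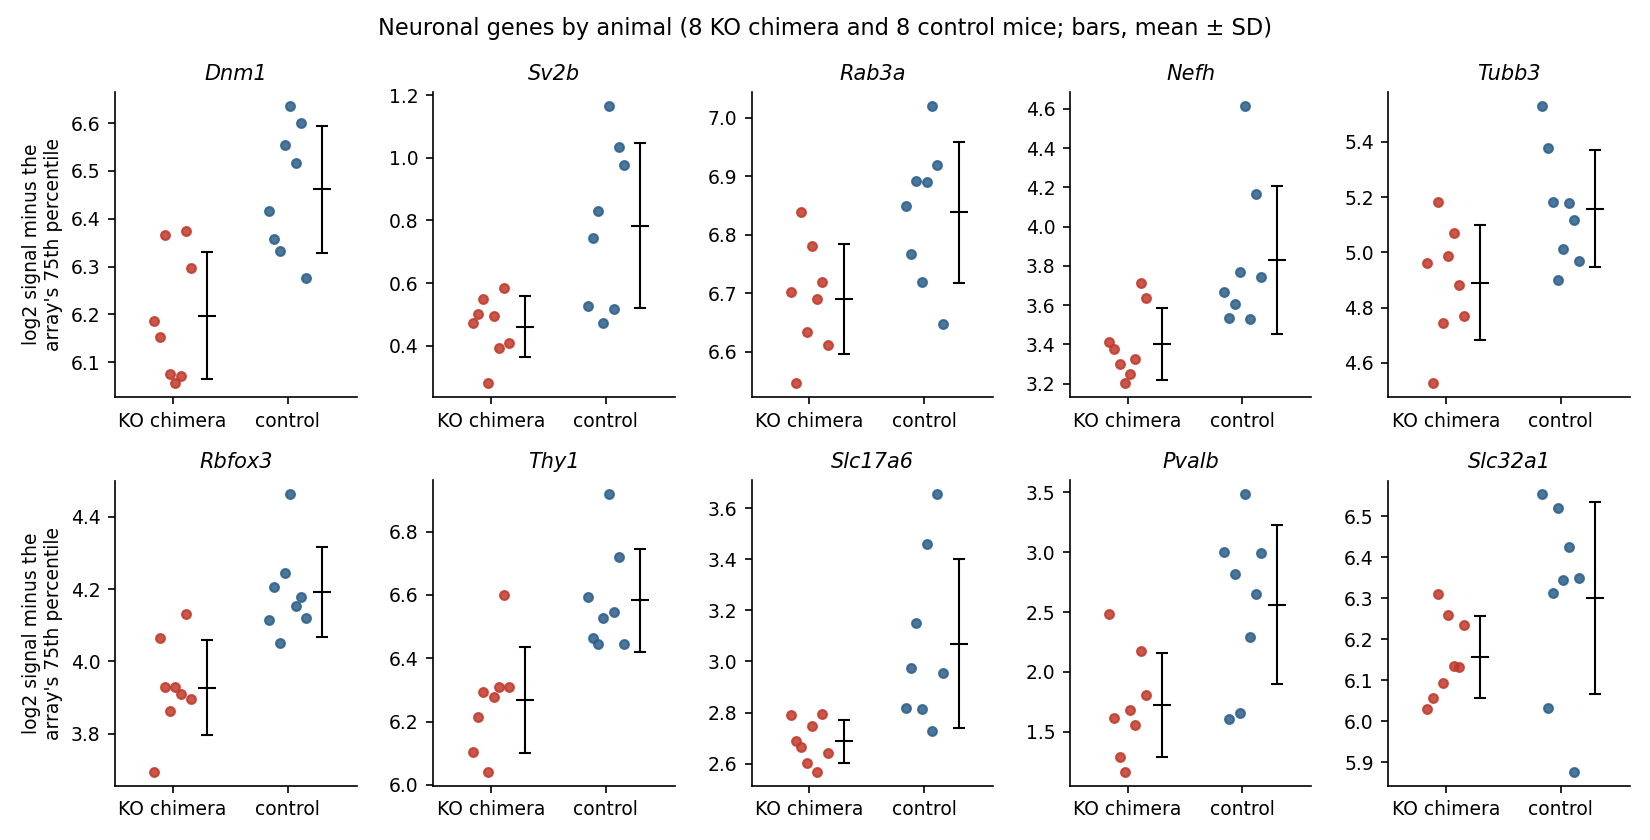
Values of 10 genes in each animal, KO chimera left and control right, as log2 signal minus the array's 75th percentile (y axis, a scale of its own per gene, not starting at 0). Points are animals and bars are the mean ± SD (n = 8 each). In Dnm1, Sv2b, Rab3a, Rbfox3, Slc17a6, Pvalb and Slc32a1 all 8 KO chimeras lie below the control median, and in every gene the groups overlap.

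The transmitter identity genes differed in sign, 3 of 5 negative, and none passed. Slc17a6, the glutamate loader VGLUT2, spanned 2.57 to 2.80 with a median of 2.68 in KO chimeras, against 2.73 to 3.65 with a median of 2.96 in control mice. The KO chimeras formed a narrow band (SD 0.08) at the foot of a wide control range (SD 0.33), whose highest values were replicates 5 and 7. The difference was −0.38 (SE 0.12; limma, adjusted p = 0.0740).

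Pvalb, the calcium buffer of fast-spiking neurons, had the largest difference of the 33. It spanned 1.17 to 2.49 with a median of 1.65 in KO chimeras, against 1.61 to 3.48 with a median of 2.74 in control mice. All 8 KO chimeras lay below the control median, and control replicates 2, 4 and 6 lay among the KO chimeras. The mean was 1.72 ± 0.44 in KO chimeras and 2.56 ± 0.67 in control mice (SD, n = 8 each), a difference of −0.84 (SE 0.26) or 55.8% of the control signal (95% interval 38.1% to 81.8%), which did not pass in limma (adjusted p = 0.0779). A dimmer Pvalb probe gave −1.22 (SE 0.26), and passed where every probe was tested (adjusted p = 0.028 over all probes), a test chosen after seeing the data.

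The genes of GABA neurons showed no shared direction. Slc32a1, the GABA loader, spanned 6.03 to 6.31 with a median of 6.13 in KO chimeras, against 5.88 to 6.55 with a median of 6.35 in control mice. Control mice held both the lowest and the highest values, and the difference of −0.15 (95% interval −0.34 to 0.05) did not pass (limma, adjusted p = 0.379). Gad1 had +0.04 (95% interval −0.21 to 0.28) and Gad2 +0.05 (−0.19 to 0.30), both below 0 with median centring. The difference between the change of glutamate and GABA genes was not tested.

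The same lean was seen in further genes of these roles, drawn up as lists alongside the 33 with earlier results of these data known. The lists are therefore no independent repeat. Of all genes, 73.8% in the top decile of signal and 74.5% in the decile below were negative. Of 92 listed genes 91 were tested, 70 were negative and 21 positive, the median was −0.13, and 9 fell (background 2.8% lower). Slc6a5, the glycine transporter, was not tested because its probe was too dim. In the vesicle list 4 of 48 fell: Synj1, which strips the clathrin coat from new vesicles (−0.28, adjusted p = 0.0114), Amph, a partner of dynamin (−0.26, 0.0281), Syt11 (−0.29, 0.0362) and Syt9 (−0.35, 0.0497).

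In the cytoskeleton and axon list 1 of 16 fell, the kinesin motor Kif5c (−0.28, adjusted p = 0.0425). In the general list 3 of 16 fell: Ndrg4 (−0.44, 0.0121), neurochondrin Ncdn (−0.38, 0.0280) and Chgb, a granin of peptide vesicles (−0.24, 0.0340). No gene of the 4 lists rose by limma.

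Some markers of neighbouring tissue and of other cells also differed between the groups. Their part in the members' differences was not tested beyond the fits given below. Of 12 markers of the thalamus, which adjoins the hypothalamus, 11 were negative with a median of −0.84, and 2 fell: the kinase Prkcd (−1.88, adjusted p = 0.0425) and the RNA editor Adarb1 (−0.62, 0.0372). The mean of these markers, centred per gene, ran from −1.46 to 0.32 in KO chimeras and from −1.02 to 1.44 in control mice. All 12 were well above background on at least 12 arrays.

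Of 13 oligodendrocyte markers 4 fell, with a median of −0.36, the 2 with the smallest p being Mal (−0.66, adjusted p = 0.0083) and Mobp (−0.68, 0.0137). Their score ran from −0.32 to 0.06 in KO chimeras and from −0.15 to 0.48 in control mice. Of 12 microglial markers 3 fell, led by Trem2 (−0.43, 0.0211) and C1qc (−0.36, 0.0424), with a median of −0.22 and a score of −0.24 to −0.02 in KO chimeras against −0.02 to 0.27 in control mice. Of 10 astrocyte markers Fgfr3 fell (−0.34, 0.0277), S100b had −0.22 (0.107), and the median was −0.13 (score −0.16 to 0.09 in KO chimeras, −0.02 to 0.14 in control mice).

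Markers of ependyma and tanycytes, which line the third ventricle, leaned the other way, 9 of 10 positive with a median of 0.47, although the 1 that passed, Dio2, fell (−0.76, adjusted p = 0.0262) and Col23a1 did not pass at +0.87 (0.105). Their score ran from −0.15 to 0.73 in KO chimeras and from −0.67 to 0.58 in control mice. Of 7 red cell genes Hbb-b2 fell (−0.58, 0.0215), Hbb-bt had −0.54 (0.0539), and the median was −0.36 (score −0.34 to 0.13 in KO chimeras, −0.13 to 0.53 in control mice). Among 13 markers of hypothalamic neurons, 10 of cortex, hippocampus and striatum and 10 of vessels, limma called 0 at the threshold (1, 0 and 1 at an unadjusted p under 0.05). Their medians were 0.14, 0.07 and 0.07, and the genes with the smallest p were Pomc (0.59) and Sim1 (−0.39), Ppp1r1b (0.12) and Drd1 (0.24), and Cldn5 (0.33) and Pecam1 (0.17). Scores of hypothalamic neurons ran from −0.34 to 0.65 in KO chimeras and from −0.34 to 0.46 in control mice, those of cortex, hippocampus and striatum from −0.19 to 0.24 and from −0.20 to 0.29, and those of vessels from −0.26 to 0.37 and from −0.31 to 0.07.

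With the thalamus score as a covariate, limma called 9 of all 24363 genes. In that fit Pvalb had −0.45, Slc17a6 −0.19 and Slc32a1 −0.21, and the median of the 33 was −0.12. With the oligodendrocyte score as a covariate 3 of all genes were called, and the median of the 33 was −0.09. Both scores differ between the groups, so these fits share out a difference that group and score hold in common, and the part of other tissue in the members' values cannot be told apart from the group.

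Relations with the scores were computed within each group for the 7 members with the smallest p between the groups. These were Rbfox3, Thy1, Dnm1, Sv2b, Slc17a6, Pvalb and Nefh, and the other members were not computed. Among 28 relations computed (7 genes, thalamus and oligodendrocyte scores, 2 groups), Slc17a6 against the thalamus score had a Pearson r of 0.82 (exact permutation p = 0.0123, adjusted 0.139) and a Spearman rho of 0.88 (p = 0.00724, adjusted 0.15) in 8 control mice, and r was 0.88 without the 2 mice farthest from the median score. In 8 KO chimeras r was 0.34 and rho 0.33 (exact permutation p = 0.399 and 0.428, adjusted 0.532 and 0.571), and 0.41 without the farthest 2. Sv2b against the thalamus score in control mice had r of 0.83 and rho of 0.86 (exact permutation p = 0.0088 and 0.0107, adjusted 0.139 and 0.15), and 0.77 without the farthest 2. Over the 7 genes, r against the thalamus score ran from −0.07 to 0.46 in KO chimeras and from 0.14 to 0.83 in control mice.

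Against the oligodendrocyte score r was negative for all 7 genes in KO chimeras (−0.70 to −0.24) and positive for all 7 in control mice (0.42 to 0.79). Nefh had the lowest r in KO chimeras, −0.70 with a rho of −0.69 (exact permutation p = 0.045 and 0.0694, adjusted 0.18 and 0.46), and r was −0.54 without the 2 mice farthest from the median score. Thy1 had the highest in control mice, 0.79 with a rho of 0.67 (exact permutation p = 0.0159 and 0.0831, adjusted 0.139 and 0.46), and r was 0.56 without the farthest 2. The 7 genes share the same animals, and the difference between the groups was not tested. None of the 28 relations passed after adjustment.

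**Figure D4:**
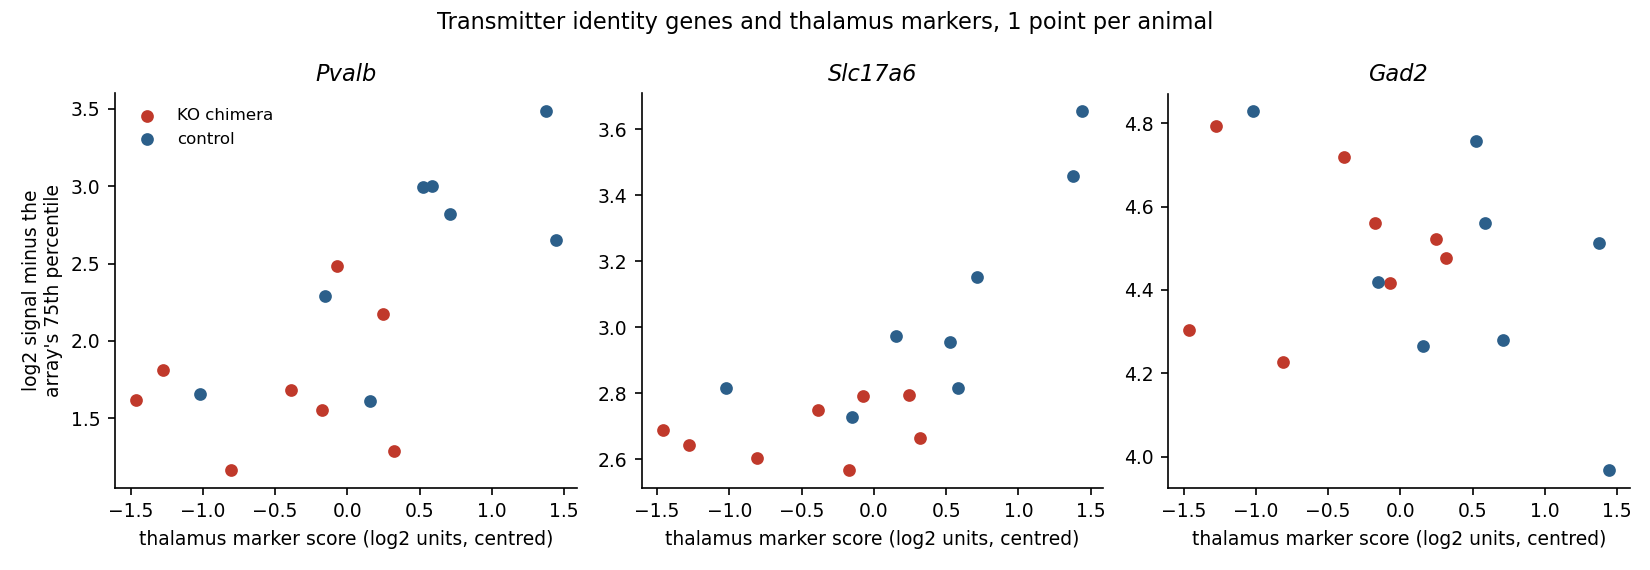
Pvalb, Slc17a6 and Gad2 in each animal, as log2 signal minus the array's 75th percentile (y axis), against the mean of 12 thalamus markers centred per gene (x axis, log2 units). The 8 KO chimera and 8 control mice are points of different colour. The control mice with the highest score, replicates 5 and 7, are those with the highest Slc17a6, and control replicate 7 has the lowest Gad2.

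Some animals stood at the edge of their group in many of the genes. Control replicate 5 was the highest control mouse in 13 of the 33 genes and the lowest in 0, and KO chimera replicate 7 was the highest KO chimera in 10 and the lowest in 0. Both were hybridised on the same slide. KO chimera replicate 4, the single array of its slide, was the lowest KO chimera in 9 and the highest in 0. The mean of the 33 genes, centred per gene, ran from −0.23 to 0.04 in KO chimeras, against −0.05 to 0.31 in control mice.

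The lean was present on each slide that held both groups. The difference of the mean of the 33 was −0.14, −0.18, −0.18, −0.27 and −0.12 on the 5 slides, and −0.17 and −0.19 on the 2 scan days. Slides 4 and 5, with −0.18 and −0.27, held 1 animal of each group. Slide 1 held 1 control mouse beside 2 KO chimeras, and slide 3 held 1 KO chimera beside 3 control mice. Only slide 6, with −0.12, held 2 of each group. Rbfox3, Thy1 and Dnm1 were negative on all 5 slides, and so were the uncalled Syt2, Vamp1, Vamp2, Sv2b, Tubb3, Nefh and Slc17a6. The slides hold the same animals that gave the calls, so the shared sign is no independent repeat. With the slide as a fixed block Rbfox3 (adjusted p = 0.0447) and Thy1 (0.0362) passed in limma and Dnm1 did not (0.0946). With the scan day as a block Rbfox3 alone passed. Within either scan day, with 4 mice per group, limma called 0 of the 33 (2 and 15 at an unadjusted p under 0.05). Of all genes the same fits called 0 and 7.

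Each of these calls lay close to the threshold. With animals left out 1 at a time (16 fits), Rbfox3 stayed between −0.29 and −0.23, Thy1 between −0.36 and −0.27, and Dnm1 between −0.29 and −0.24. All 3 remained called without control replicate 8 or KO chimera replicate 7. Rbfox3 was also called without control replicate 3 and Dnm1 without KO chimera replicate 3, and in the other fits adjusted p reached 0.0805 for Rbfox3, 0.0914 for Thy1 and 0.0964 for Dnm1. Without control replicate 2 Pvalb alone passed (−0.98, adjusted p = 0.0448), and without control replicate 4 Pvalb (−0.97, 0.0473) and Sv2b (−0.37, 0.0495) did.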

How the data were processed

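Total RNA from hypothalamus was labelled with Cy3 and hybridised to 1-colour Agilent mouse arrays, 1 animal each. The authors deposited an intensity for each spot, read with Agilent Feature Extraction, version 10.7 in the submitters' processing notes and 10.1.1.1 per the file headers; the processed intensity is linear and background-subtracted, per the file headers. A table of log2 values with a floor of 2.2 was deposited too; against the scanner's log2 values each array gave a correlation of at least 0.9996, array medians were 5.2138 to 5.2557, its scale is log2 without centring of genes, and its step that aligned the arrays is unknown. Groups came from the source names, and 1 KO chimera title has a zero where the letter O belongs.

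Control spots and spots marked as outliers were left out of 59305 non-control spots for 55681 probes; no spot was saturated. Log2 of the processed intensity minus the array's 75th percentile was averaged over spots of a probe. A probe was kept if at least 8 of the 16 arrays read it well above background and each group had 4 or more unmarked values (35144 probes; the condition on unmarked values removed 3), and the probe with the highest mean stood for its gene (24363 genes). Names came from the RefSeq accession for 28020 probes, from a current symbol for 3423 and from an older one for 295, while 23943 kept the name in the files. The test was limma 3.58.1 under R 4.3.3 (lmFit, then eBayes), with Benjamini-Hochberg adjustment over all genes at 0.05. The number of arrays limits the precision, and p-values reflect the spread from animal to animal.

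The members and lists were chosen with earlier results of these data known. All 33 members are named; values by animal are given for members past the threshold and, per role, for the 2 with the smallest p and the 1 with the largest mean signal. Of the further lists the genes past the threshold are named, up to 8 per list, and of each marker list the 2 with the smallest p; Slc6a5, Otp, Neurod6, Emx1 and members' other probes are named besides. Of the 9 further genes past the threshold, 1 is not reported here. A score is the mean of log2 values centred per gene.

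There were 6 slides, of which 5 carried both groups; slide 2 held KO chimera replicate 4 alone, and slides 4 and 5 held 1 animal of each group. Both scan days held 4 animals of each group. The spike-in line of control replicate 8 had an R2 of 0. Alternatives were other background corrections and scalings, the deposited table, other filters, the mean of a gene's probes, a test of each probe, slide, scan day or number as a block, each scan day alone, other eBayes settings, array weights, the scores as covariates, each animal left out and a threshold of 0.1. Scripts were tested on simulated data. Python 3.11.15 with matplotlib 3.10.9 drew the figures.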

Additional observations from a re-analysis of the deposited data

Results flagged for a closer look

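In 3 of 66 groups of 8 animals (33 genes, both groups) 1 animal stood farther from the others than Dixon's 95% critical value allows, and chance flags about 1 group in 20. The complexin Cplx1 read 4.24 in KO chimera replicate 8, where the nearest other KO chimera read 3.78 (gap over range 0.533). Rbfox3 read 4.46 in control replicate 5, where the nearest other control mouse read 4.25 (gap over range 0.527); without that animal Rbfox3 had a difference of −0.23 and did not pass (limma, adjusted p = 0.0805). Elavl4 read 2.07 in KO chimera replicate 1, the array with the fewest spots above background, where the nearest other KO chimera read 2.43 (gap over range 0.605).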

How the results depend on the processing

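Calls among the 33 genes depended on the setting; the number called in limma among all genes, the 33 and the further 91 is given in that order, against 933, 3 and 9. It was 271, 0 and 4 with normexp background correction, 523, 0 and 3 with quantile normalization, 4168, 14 and 33 with median centring, 535, 0 and 4 with the deposited table, and 598, 0 and 4 with no filter on dim probes. It was 488, 2 and 4 when slide entered as a fixed block, 0, 0 and 0 within the first scan day, 7, 0 and 0 within the second, and 2039, 7 and 20 at an adjusted p of 0.1. With the thalamus score as a covariate it was 9, 0 and 0, and with the oligodendrocyte score 3, 0 and 0. Where the 33 gave 0, those at an unadjusted p under 0.05 numbered 13 (normexp), 11 (quantile), 10 (deposited table), 14 (no filter), 2 and 15 (scan days), 3 (thalamus) and 1 (oligodendrocyte). Of the 33, 1 was called with the mean of a gene's probes and where every probe was tested (Pvalb in each), 1 with the scan day as a block (Rbfox3), 5 with trend and robust eBayes (Sv2b and Slc17a6 added), and 1 without slide 4 (Dnm1). Of the 91, 15 were called with the filter set at all arrays, 14 with the slide as a random block and 14 with trend and robust eBayes. Higher calls were 26.8% of all, against 9.96% with normexp, 4.27% with median centring and 40.5% with no filter. With the replicate number as a block 812, 1 (Pvalb) and 14 were called, and the numbers did not pair the mice: deviations correlated above 0.1 in 3 of 8 numbers (−0.07 to 0.24), and 2 of 8 KO chimeras correlated best with their own number. The settings without slide 4 and with every probe were chosen after seeing the data. Why the counts moved was not tested.

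Leaving out 1 animal at a time gave 364 to 1030 of all genes, 0 to 3 of the 33 and 2 to 11 of the 91. All genes numbered 542, 364 and 390 without control replicate 1, 5 or 7, and 443, 617, 403 and 617 without KO chimera replicate 2, 4, 6 or 7. The median of the vesicle genes stayed between −0.17 and −0.13, of the cytoskeleton genes between −0.31 and −0.21, of the general markers between −0.15 and −0.08 and of the transmitter genes between −0.21 and −0.11. With median centring the vesicle, cytoskeleton, general and transmitter medians were −0.27, −0.39, −0.24 and −0.27. The vesicle median was −0.07 with the oligodendrocyte score, and the cytoskeleton median −0.11 with that score and −0.15 with the thalamus score. The general median was −0.04 with quantile normalization, −0.07 with the deposited table, and −0.24 and −0.18 within the first and the second scan day. The transmitter median was −0.09 with quantile normalization, with the mean of probes and within the second scan day.

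Signs turned in the genes below, none of them called. With normexp Syt2 had 0.0088 and Sv2c 0.0412; with quantile normalization Snap25 had 0.0044, Syt4 0.0523 and Nefl 0.041; with the deposited table Syt4 had 0.0481 and Nefl 0.0242. With median centring Cplx2 had −0.0507, Map2 −0.0502, Gad1 −0.0888 and Gad2 −0.0716. With the mean of probes Sv2c had 0.0196, and when slide entered as a fixed block Syt4 had 0.014 and Stx1a 0.0193. Within the first scan day Snap25 had 0.0357, Syn2 0.0086, Stx1a 0.0672, Map2 −0.0079, Gad1 −0.0929 and Gad2 −0.0808. Within the second Syt4 had 0.0899, Sv2c 0.0493, Cplx2 −0.1211 and Elavl4 0.0843. With the thalamus score Snap25 had 0.0116, Syt1 0.04, Syt4 0.0488, Stx1a 0.1211, Syp 0.0102, Nefl 0.0865, Gad1 −0.0554 and Gad2 −0.0473. With the oligodendrocyte score Snap25 had 0.0027, Syt2 0.0275, Vamp1 0.0337, Nefl 0.0789 and Gad2 −0.0123. With array weights Syt4 had 0.0125 and Cplx2 −0.0135, and without slide 4 Syt4 had 0.005 and Cplx2 −0.1178. With each animal left out Syt4 ran from −0.0335 to 0.0186, Stx1a from −0.0904 to 0.014, Sv2c from −0.176 to 0.0048, Cplx2 from −0.0496 to 0.191, Nefl from −0.0608 to 0.0076, Gad1 from −0.041 to 0.088 and Gad2 from −0.0146 to 0.1083. Over members and settings, 970 values kept sign and side of the threshold, 75 lost and 20 gained a call, and 55 turned sign. The lost calls were all in Rbfox3, Thy1 and Dnm1, the only members with a call to lose. Of 34 settings, Rbfox3 stayed called in 10, Dnm1 in 9 and Thy1 in 8.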
